A study of Mus musculus with 6 samples.

Results

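The 10 genes described here, Prss2, Ctrb1, Ctrl, Cela1, Cela3b, Cpa1, Pnlip, Pnliprp1, Cel and Clps, encode digestive enzymes of the pancreas, or, in the case of Clps, the cofactor of one. They were taken as the non-control spots that carry one of these gene names on the arrays, which gave 11 probes of 55681 and 10 genes of 23113 named genes. The genes were picked by the known role of their products at a time when their signals on these arrays had already been seen. Their values are therefore given as a description, with no test.

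Jejunal RNA of 6 mice, all male and of strain C57BL/6J, was hybridised to arrays with 1 colour channel, 1 array per mouse. In the VND3207 group, 3 mice received the compound VND3207 by the intragastric route at 100 mg/kg, and in the vehicle group 3 mice received the same volume of vehicle. All 6 mice, the vehicle group included, were given 9 Gy of radiation 0.5 h after dosing, and jejunum was taken 6 h after irradiation, so no unirradiated intestine enters the comparison. The ages of the mice are not given in the sources used here.

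Acinar cells of the pancreas store trypsinogen, chymotrypsinogens, proelastases, procarboxypeptidases, lipases and amylase in granules and release them through the pancreatic duct into the duodenum, upstream of the jejunum. There, enteropeptidase, a protease of the duodenal brush border, cuts trypsinogen to trypsin, and trypsin activates the other proenzymes. The enzymes reach the intestine as proteins, and their transcripts are widely used as markers of acinar cells.

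Every probe on the array is a synthetic oligonucleotide of 60 bases, and the signal of a gene is the signal at its probe. The sequences below are those of 3 probes whose signals differed widely between arrays, Prss2, Cela3b and Cpa1, together with the probe of Cel and that of a further trypsinogen, Prss1. They are shown because members of one family could be read by each other's probes. Coordinates are of the mouse build mm9, as the array's files give them; whether a probe lies in a coding or an untranslated stretch was not looked up, since no annotation of that build was used. Each sequence is written 5′ to 3′, and capitals mark the 14 bases that the probes of Prss2 and Prss1 share, their longest common run.
Prss2 probe, chr6:41473937-41473996 (+ strand): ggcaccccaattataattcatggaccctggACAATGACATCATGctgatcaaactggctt
Prss1 probe, chr6:41412628-41412687 (+ strand): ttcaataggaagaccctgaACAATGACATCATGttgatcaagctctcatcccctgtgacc
Cela3b probe, chr4:136979192-136979251 (- strand): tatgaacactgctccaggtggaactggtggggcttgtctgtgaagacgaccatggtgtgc
Cpa1 probe, chr6:30595240-30595299 (+ strand): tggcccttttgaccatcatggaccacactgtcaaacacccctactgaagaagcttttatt
Cel probe, chr2:28411609-28411668 (- strand): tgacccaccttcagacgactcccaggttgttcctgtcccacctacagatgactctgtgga
Among the probes of the 10 genes and of the other pancreatic enzymes, runs longer than these 14 bases were found for the probe pairs Try4 and Try5, with 31 bases, and Prss1 and Try10, with 35 bases. None of the 11 probes of the 10 genes shared a run of more than 14 bases with another of these probes. Probes were compared with probes only and not with the transcripts of related genes. The runs therefore cannot show which transcripts a probe reads.

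Levels are given as log2 of the processed signal minus the 75th percentile of the array, so that 0 is the signal below which 75% of the spots of that array lie, and a difference of 1 is a change by a factor of 2. A probe has its own brightness for a given amount of RNA, so the level of one probe is not set against that of another. The scanner software marks each spot as well above background or not; a signal that is not well above background is a bound, and such values carry no order among themselves. Of 59305 non-control spots, between 58.8% and 61.4% were well above background on the VND3207 arrays, against 66.7% to 70.0% on the vehicle arrays, and no spot was saturated. The 3 VND3207 arrays shared 1 slide and scan and the 3 vehicle arrays another, so the slide and the treatment cannot be told apart. All 8 genes used to check the tissue label, among them Vil1 and Fabp2 of the small intestinal epithelium, Muc2 of goblet cells and Lyz1 of Paneth cells, were well above background on all 6 arrays. With 3 arrays in each group, this number limits the precision of every value below.

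The array of vehicle replicate 2 stood apart from the other 5 for these genes, and each difference between groups in the 10 genes is given with and without it. Of the 10 genes, 7 had their highest signal on that array, 3 on the array of vehicle replicate 1 and 0 on a VND3207 array. Across the 30575 features tested for a difference between groups, 24.8% had their highest signal in vehicle replicate 2. Those features passed a filter on dim probes, which Prss2 and Pnlip did not pass. All 10 genes were well above background in vehicle replicate 2, 9 in vehicle replicate 1 and 8 in vehicle replicate 3, while 6 were on each of the 3 VND3207 arrays. In whole tissue, fewer cells of a type and less RNA per cell cannot be told apart.

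**Figure D1:**
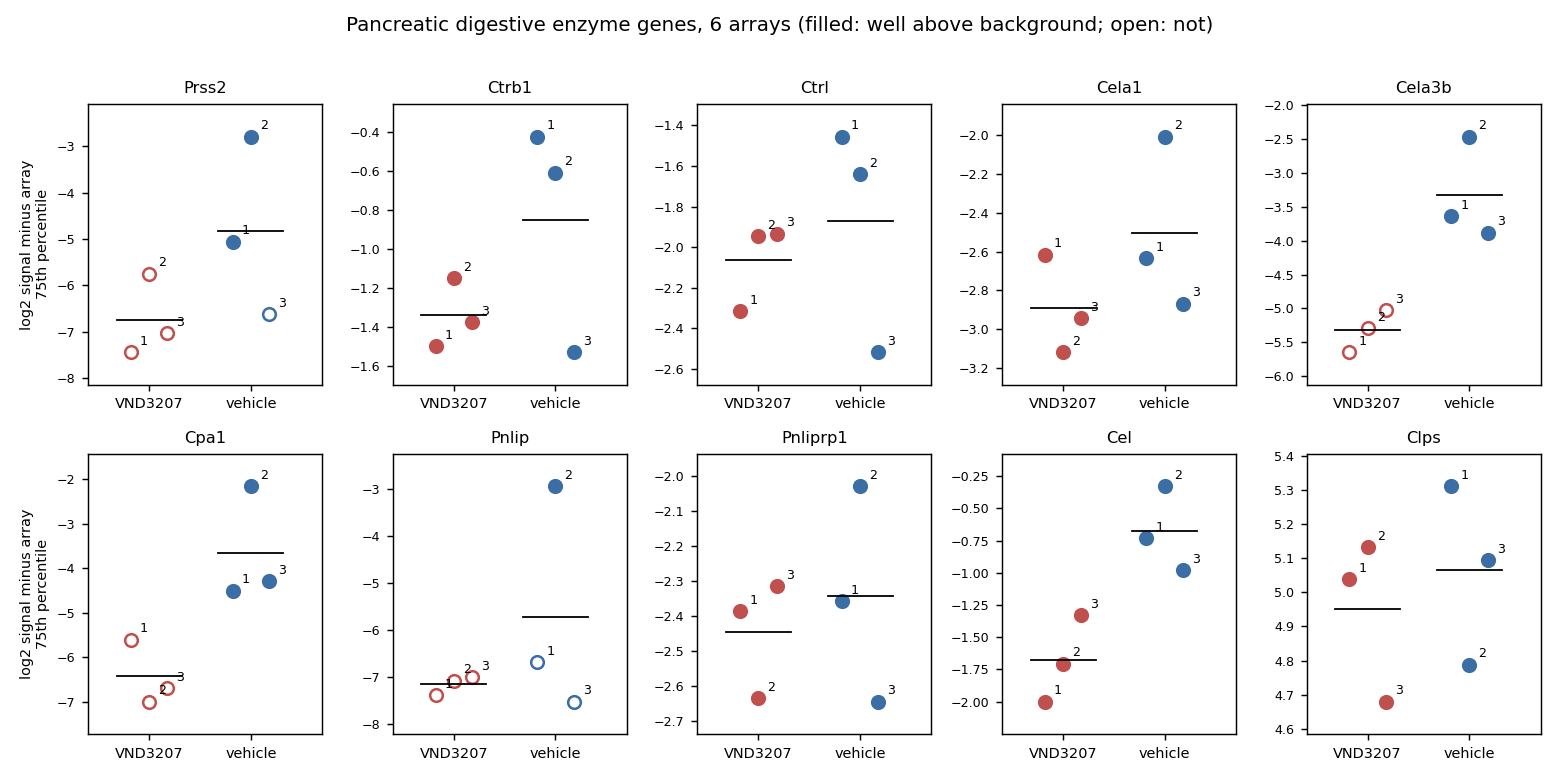
Signal of each of the 10 genes on each of the 6 arrays, as log2 signal minus the array's 75th percentile, with the VND3207 arrays on the left and the vehicle arrays on the right of each panel; numbers are replicates, lines are group means, and open circles are signals not well above background. Each panel has its own scale. Pnlip, Prss2, Cpa1 and Cela3b have open circles on all 3 VND3207 arrays and their highest point in vehicle replicate 2, whereas the 6 points of Clps lie between 4.68 and 5.31.

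Among the serine proteases, Prss2, a trypsinogen and so the precursor of the enzyme that activates the rest, had signals of -7.44, -5.75 and -7.03 on the VND3207 arrays, none of them well above background, against -5.06, -2.79 and -6.61 on the vehicle arrays. Of the vehicle arrays, replicates 1 and 2 were well above background and replicate 3 was not, and the groups overlapped. The mean was -6.74 ± 0.88 with VND3207 and -4.82 ± 1.92 with vehicle (SD, n = 3 each), a difference of -1.92, or -0.90 without vehicle replicate 2. All VND3207 signals were bounds. With normexp background correction the difference was -0.38.

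The chymotrypsinogens behaved differently from Prss2 in that every array was well above background. Ctrb1, chymotrypsinogen B, had -1.50, -1.15 and -1.37 on the VND3207 arrays, against -0.42, -0.61 and -1.53 on the vehicle arrays. Vehicle replicates 1 and 2 were high and vehicle replicate 3 was the lowest of all 6, so the groups overlapped. Ctrl, a chymotrypsin-like protease, had -2.31, -1.94 and -1.93 with VND3207 and -1.46, -1.64 and -2.52 with vehicle. It showed the same order of the vehicle arrays as Ctrb1, with replicate 1 the highest and replicate 3 the lowest. The difference between groups was -0.49 for Ctrb1 and -0.19 for Ctrl, or -0.36 and -0.08 without vehicle replicate 2, with moderated standard errors of 0.30 in both genes over all 6 arrays.

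The pancreatic elastases split. Cela3b, proelastase 3B, had -5.64, -5.29 and -5.02 on the VND3207 arrays, none well above background, against -3.64, -2.47 and -3.88 on the vehicle arrays, all well above it. The groups did not overlap, and Cela3b was at least 2.96-fold lower with VND3207, or at least 2.20-fold lower without vehicle replicate 2. These bounds are of the processed signal only. With normexp background correction the fold over all 6 arrays was smaller than 2.96. Its measured means were -5.32 ± 0.31 with VND3207 and -3.33 ± 0.76 with vehicle (SD, n = 3 each), and the difference of -1.99 became -1.56 without vehicle replicate 2 and -0.59 with normexp background correction. Cela1, proelastase 1, was well above background on every array, with -2.62, -3.12 and -2.94 on the VND3207 arrays and -2.63, -2.01 and -2.87 on the vehicle arrays. Here vehicle replicate 2 alone was high, and the difference of -0.39 became -0.14 without it.

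Cpa1, the precursor of carboxypeptidase A1, which removes residues from the C-terminal end of peptides, had signals of -5.60, -7.00 and -6.69 on the VND3207 arrays, none well above background, against -4.51, -2.15 and -4.29 on the vehicle arrays, all well above it. The groups did not overlap, and vehicle replicate 2 lay far above the other vehicle arrays. Cpa1 was at least 2.37-fold lower with VND3207, or at least 1.41-fold lower without vehicle replicate 2. Both bounds are of the processed signal only. With normexp background correction the fold over all 6 arrays was smaller than 2.37. The measured means were -6.43 ± 0.73 with VND3207 and -3.65 ± 1.30 with vehicle (SD, n = 3 each). The difference was -2.78, or -2.03 without vehicle replicate 2, and -0.59 with normexp background correction.

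Among the lipases, Pnlip, pancreatic triglyceride lipase, was well above background on 1 array only, that of vehicle replicate 2. Its signals were -7.38, -7.07 and -6.99 with VND3207 and -6.67, -2.92 and -7.51 with vehicle. The other 5 arrays spanned 0.84, compared with 4.59 over all 6, and the difference of -1.44 became -0.05 without vehicle replicate 2. The difference between groups thus rested on that array, and it was 0.48 once smooth trends over the array surface, brightness and GC content had been removed. Pnliprp1, a lipase-related protein of the pancreas, was well above background throughout and had -2.39, -2.63 and -2.31 on the VND3207 arrays and -2.36, -2.03 and -2.64 on the vehicle arrays. The groups overlapped, and its difference of -0.10 turned to 0.06 without vehicle replicate 2.

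Cel, bile salt-activated lipase, which acts on cholesterol esters among other lipids, had -2.0, -1.70 and -1.33 on the VND3207 arrays, against -0.73, -0.33 and -0.98 on the vehicle arrays. All 6 arrays were well above background and the groups did not overlap. The means were -1.68 ± 0.34 with VND3207 and -0.68 ± 0.33 with vehicle (SD, n = 3 each), a difference of -1.0 with a moderated standard error of 0.24, and -0.82 without vehicle replicate 2. Of the 3 genes whose groups did not overlap, Cel was the one in which both groups were measured above background.

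Clps encodes colipase, the cofactor that holds pancreatic lipase at the lipid surface in the presence of bile salts. Its brighter probe had 5.04, 5.13 and 4.68 on the VND3207 arrays and 5.31, 4.79 and 5.09 on the vehicle arrays, and was thus far above the 75th percentile of every array. Its other probe had 3.03, 3.03 and 2.69 with VND3207 and 3.29, 2.65 and 2.76 with vehicle. Both probes had vehicle replicate 1 as the highest array, and the groups overlapped in both. The difference was -0.11 at the brighter probe and 0.02 at the other, or -0.25 and -0.10 without vehicle replicate 2. The array with the high Pnlip signal, vehicle replicate 2, had the lowest Clps signal of the vehicle group at both probes.

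All VND3207 arrays lay below all vehicle arrays for 3 of the 10 genes, Cpa1, Cela3b and Cel, and above all of them for 0. The background was 26.3% of the 30575 features tested for the first and 9.13% for the second, or 35.5% for both together, so the count is not a result particular to the enzymes. The difference was below 0 for all 10 genes, for 9 without vehicle replicate 2, for 9 after quantile normalisation and for 5 after smooth trends with the place of the spot, its brightness and its GC content were removed from each array. The median difference over the 10 genes was -0.74, or -0.31 without vehicle replicate 2 and -0.16 after the removal of those trends, beside -0.08 over all features tested. In listed signals, 5 of the 10 genes were lower with VND3207 by more than 0.5 and the other 5 differed by less. The share of all features with such a difference was not computed. In Cpa1, Cela3b, Prss2 and Pnlip, 4 of the first 5, no VND3207 signal was well above background. For Prss2 the calculation used for the bounds gave 1.05-fold lower. That value is not a lower bound, because vehicle replicate 3 was not well above background either. Pnlip had no such value. Of the 10 genes, 8 passed the filter on dim probes that admits a probe to the test, which asks for a signal well above background on at least 3 arrays; Pnlip and Prss2 did not.

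**Figure D2:**
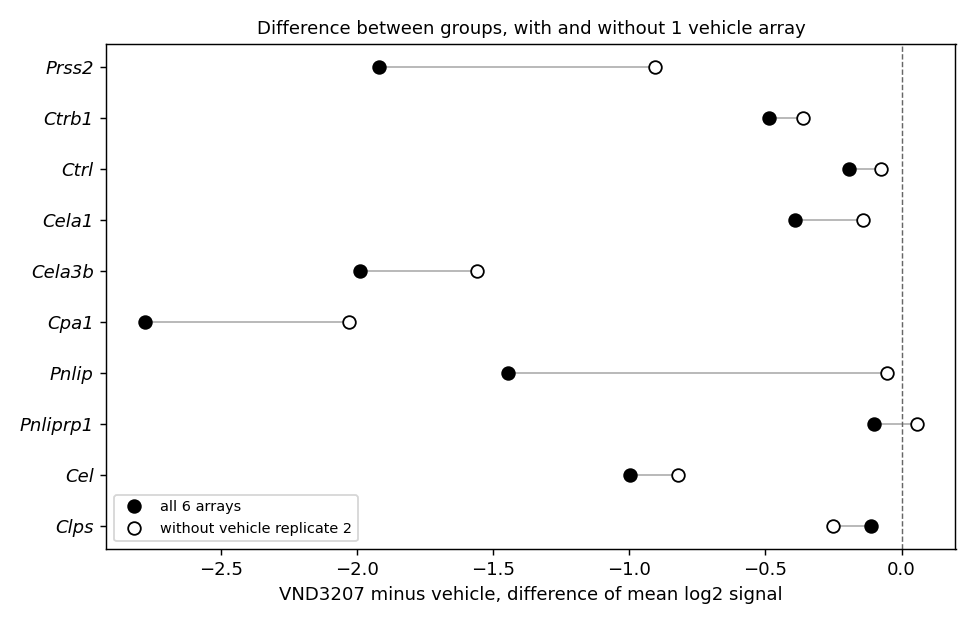
Difference of group means, VND3207 minus vehicle, on the log2 scale for each of the 10 genes, over all 6 arrays (filled) and without vehicle replicate 2 (open). Pnlip stands at -1.44 over all arrays and at -0.05 without that array, and Cpa1 at -2.78 and -2.03, while Pnliprp1, Ctrl and Clps lie within 0.3 of 0 in both cases.

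Of the 36091 probes kept, 2436, or 6.75%, were well above background on all 3 vehicle arrays and on 0 VND3207 arrays, as were Cpa1 and Cela3b, whereas 8 probes, or 0.0222%, showed the reverse. The listed signals differed by at least 2 on the log2 scale over the arrays in 4 of the 10 genes, Cpa1, Prss2, Pnlip and Cela3b, as they did in 9.56% of all features tested. The low ends of these 4 ranges are signals not well above background, so the ranges are of listed signals and not of measured levels. The median range over the 6 arrays was 1.39 for the 10 genes and 0.71 for all features. Both values for all features are over those that passed the filter on dim probes. Prss2 and Pnlip did not pass it, so the 2 sets were not picked alike.

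Other enzymes of the pancreatic juice were examined in a list of 15 genes, of which 13 had a probe and 9 passed the filter. In limma's test with Benjamini-Hochberg adjustment over all features, 0 of these 9 genes passed the threshold of 0.05, while 17.1% of all features did, 16.1% lower and 0.945% higher with VND3207. That split depended on the scaling, with 747 features higher and 3091 lower after quantile normalisation, against 289 higher and 4927 lower here. At an unadjusted p under 0.05, Cpb1 and Prss1, 2 of the 9, were lower with VND3207, as were 23.7% of all features, so that this count is near the background. Prss1 passed the adjusted threshold in 1 alternative, the fit without VND3207 replicate 1.

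The highest array was again vehicle replicate 2 for 8 of the 13 genes and for 11 of their 17 probes, beside 24.8% of all features tested. That share is over features that passed the filter, as 9 of the 13 genes did, so the sets are not alike. Of the probes, 4 were well above background on that array alone, and the share of all probes that were so was not computed. Those of Try4 and Try5 share 31 bases and are not separate measurements. Another of the 4 belongs to Amy2a5, pancreatic amylase, which cleaves starch. It had -6.13, -7.01 and -6.87 on the VND3207 arrays and -7.38, 0.82 and -7.35 on the vehicle arrays. A second probe of Amy2a5 had -3.59, -6.08 and -6.84 with VND3207 and -4.84, -2.55 and -5.42 with vehicle. It too was highest in vehicle replicate 2, but was also well above background in VND3207 replicate 1 and vehicle replicate 1, so the amylase probes did not show the same pattern on the other arrays.

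The trypsinogens other than Prss2 included probes with a signal in vehicle replicate 2 alone. Try4 had -5.29, -7.06 and -6.94 on the VND3207 arrays and -7.81, -1.11 and -7.47 on the vehicle arrays, and Try5 had -6.49, -6.91 and -6.68 with VND3207 and -6.37, -1.02 and -6.04 with vehicle. The -7.81 of Try4 is the lowest value on the array of vehicle replicate 1. The probes of Try4 and Try5 share 31 bases, so the pair counts as 1 measurement of closely related transcripts. Of the Prss1 probes, the one without a long shared run had -7.28, -4.59 and -4.71 on the VND3207 arrays and -3.55, -3.36 and -3.95 on the vehicle arrays, with a difference of -1.91, a limma adjusted p of 0.149, and a difference of -1.78 without vehicle replicate 2. The groups did not overlap for this probe, and 1 VND3207 array and all 3 vehicle arrays were well above background. The other Prss1 probe was well above background in vehicle replicate 2 alone, at -3.82, and the probe of Try10, with which it shares 35 bases, on no array.

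Cpb1, procarboxypeptidase B, was well above background on every array, with -3.73, -3.84 and -3.53 on the VND3207 arrays and -3.37, -1.73 and -2.84 on the vehicle arrays. Its groups did not overlap, the difference was -1.06 with a limma adjusted p of 0.151, and it was -0.60 without vehicle replicate 2. Cela2a, a proelastase, was well above background on 1 array of each group, at -3.40 in VND3207 replicate 2 and -3.40 in vehicle replicate 2. The other 4 arrays were not.

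Ctrc, Pla2g1b, Rnase1 and Klk1 also passed the filter, with differences of -0.06, -0.39, -0.14 and 0.10. That probe of Pla2g1b was well above background on 2 VND3207 arrays and 3 vehicle arrays. Ctrc, which the RefSeq table lists as a transcribed pseudogene in mouse, had a second probe that cleared the background mark in 0 VND3207 and 3 vehicle mice. Its listed difference of -1.90 rests on VND3207 signals that are bounds. Whether the 2 probes of Ctrc disagree is therefore not established. Amy2b and Prss3 had no probe under their names and were not analysed here.

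**Figure D3:**
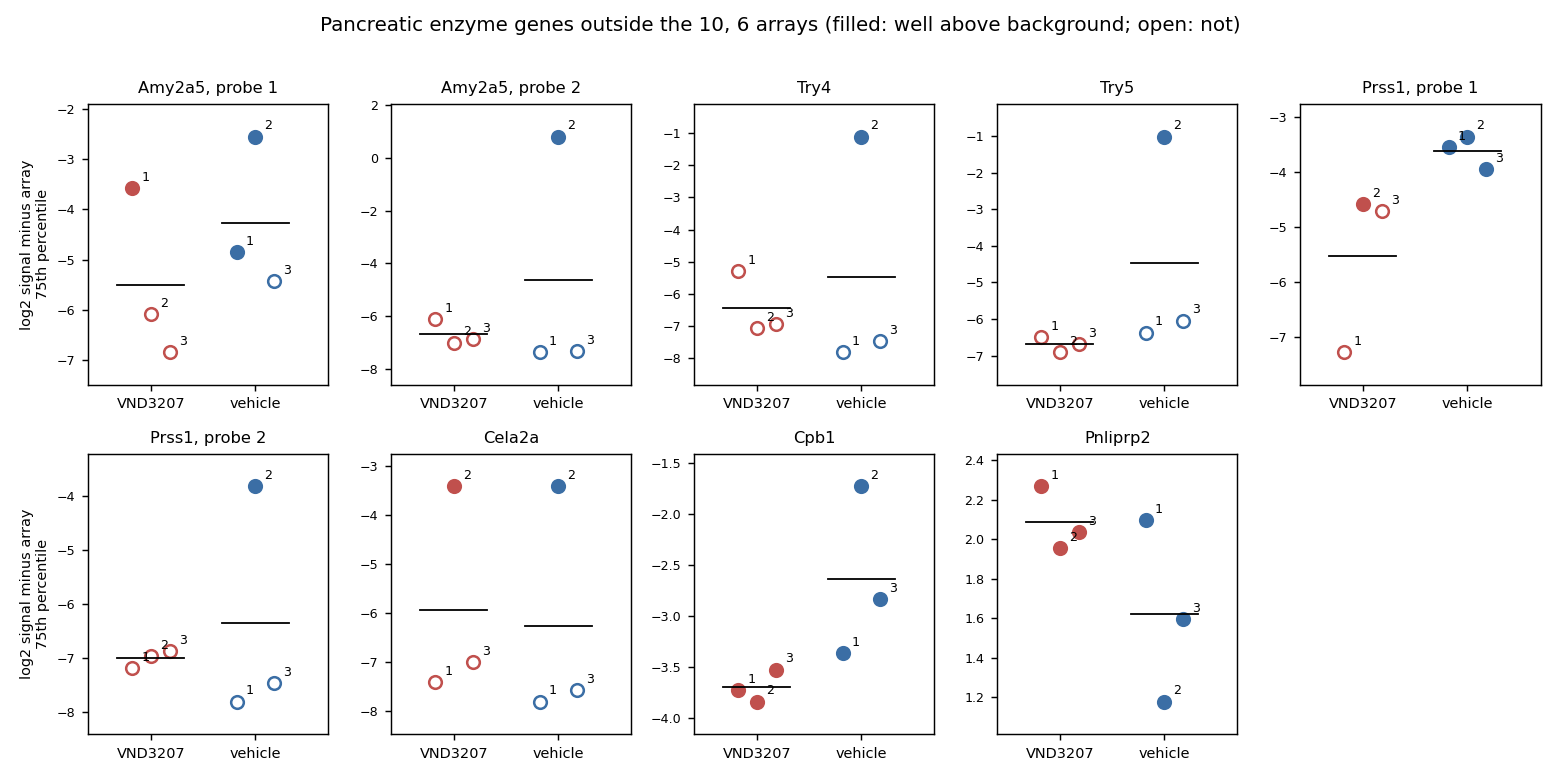
Signal of 9 probes of pancreatic enzyme genes outside the set of 10, as log2 signal minus the array's 75th percentile on each of the 6 arrays, VND3207 left and vehicle right; open circles are signals not well above background and lines are group means. Probe 2 of Amy2a5, Try4, Try5 and probe 2 of Prss1 have their only filled circle in vehicle replicate 2, and Pnliprp2 has its lowest point there.

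Pnlip, Pnliprp1 and Pnliprp2 lie next to each other on chromosome 19 with 0 protein-coding genes between neighbours. Pnlip and Pnliprp1 both had their highest signal in vehicle replicate 2, and Pnliprp2 did not. Pnliprp2, a lipase related to Pnlip, had 2.27, 1.96 and 2.04 on the VND3207 arrays and 2.10, 1.18 and 1.60 on the vehicle arrays, with its lowest signal in the array where Pnlip was highest. Its difference was 0.46 with a limma adjusted p of 0.287, and 0.24 without vehicle replicate 2. Prss2 and Prss1 are likewise neighbours on chromosome 6, and both had their highest signal in vehicle replicate 2.

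Other proteins of acinar granules, and proteins of the endoplasmic reticulum through which secreted products pass, were followed in a list of 10 genes. Of these, 8 passed the filter and 2 passed limma's adjusted threshold, both lower with VND3207, beside 16.1% of all features called lower. Erp27, a chaperone of the endoplasmic reticulum that is abundant in pancreas, had 4.43, 4.43 and 4.27 on the VND3207 arrays and 5.89, 5.60 and 5.70 on the vehicle arrays. It fell by 1.36 on the log2 scale (limma adjusted p = 0.00198), or by 1.42 without vehicle replicate 2, with vehicle replicate 2 the lowest of the vehicle arrays. Spink1, a trypsin inhibitor, had 8.31, 8.38 and 8.26 with VND3207 and 8.75, 8.78 and 8.66 with vehicle, a difference of -0.41 (limma adjusted p = 0.0337). The call for Spink1 was lost after quantile normalisation and whenever any 1 of the 6 arrays was left out, whereas Erp27 passed in every alternative run. Both genes were well above background on all 6 arrays, and whether their signals come from acinar cells was not tested.

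The rest of that list did not pass. Sycn, syncollin of the zymogen granule membrane, differed by -0.74 (limma adjusted p = 0.0536), or -0.54 without vehicle replicate 2, and was highest in vehicle replicate 2. Reg1, a secreted C-type lectin of pancreas and gut, had 6.33, 6.85 and 7.88 on the VND3207 arrays and 6.98, 8.52 and 7.38 on the vehicle arrays, with vehicle replicate 2 the highest and VND3207 replicate 3 next. Zg16, a lectin of zymogen granules and goblet cells, differed by -0.30 (limma adjusted p = 0.0742). Gp2, the main membrane protein of zymogen granules, Reg2 and Pdia2 differed by -0.62, -0.66 and -0.08. That probe of Gp2 was well above background on 1 VND3207 array and 2 vehicle arrays. Cuzd1 and Serpini2, products of acinar cells, were not well above background on any array.

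The transcription factors of acinar cells gave no calls among the 3 of 4 that passed the filter. Ptf1a, which with Rbpjl forms the complex that drives acinar enzyme genes, was not well above background on any array, vehicle replicate 2 included. Rbpjl, Bhlha15 and Nr5a2 were well above background on all 6 arrays, with differences of -0.03, 0.38 and 0.11. The median centred signal of the list was -0.18 in vehicle replicate 2, against values from -0.19 to 0.27 on the other 5 arrays.

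Of 11 markers of the endocrine pancreas, 9 passed the filter and 0 passed limma's adjusted threshold, and vehicle replicate 2 was the highest array for 2. Ins2, insulin 2, had -0.91, -0.81 and -1.03 on the VND3207 arrays and -0.48, -0.61 and -1.17 on the vehicle arrays. Ppy, pancreatic polypeptide, and G6pc2, a beta cell enzyme, were not well above background on any array. Pdx1, a factor of both pancreas and duodenum, was one of the 2 genes highest in vehicle replicate 2. It had -7.26, -5.93 and -3.95 with VND3207 and -4.47, -1.25 and -4.78 with vehicle, a difference of -2.21 with a limma adjusted p of 0.304, and of -1.09 without vehicle replicate 2. Pdx1 was well above background on 1 VND3207 array and 3 vehicle arrays, so these differences rest in part on bounds.

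Genes of the gut that act on pancreatic secretion also differed between arrays. Tmprss15, enteropeptidase, had -4.77, -1.71 and 2.82 on the VND3207 arrays and -0.52, 3.82 and 0.77 on the vehicle arrays, all well above background. Its range of 8.59 over the 6 arrays went with groups that overlapped, and the difference of -2.58 had a limma adjusted p of 0.494; it was -1.34 without vehicle replicate 2. Vehicle replicate 2 was the highest and VND3207 replicate 3 the next. Pnlip, Prss2, Cpa1 and Cela3b cleared the background mark on none of the VND3207 arrays, so their order there is not known. Of the VND3207 arrays, replicate 3 was the highest for Cel, Pnliprp1 and Ctrl, and the lowest for both probes of Clps. It lay between the others for Cela1 and Ctrb1. Whether the enzyme signals follow Tmprss15 over the arrays was not tested. Cck, cholecystokinin, the hormone that triggers enzyme release, had 4.18, 4.77 and 5.43 with VND3207 and 4.99, 5.88 and 4.95 with vehicle. Its highest arrays, like those of Tmprss15, were vehicle replicate 2 and VND3207 replicate 3. Sct, secretin, which stimulates ductal bicarbonate, stayed between 5.54 and 5.90. Of the 5 genes of this list, 4 passed the filter and 0 were called, and Cckar, a cholecystokinin receptor, was not well above background on any array.

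**Figure D4:**
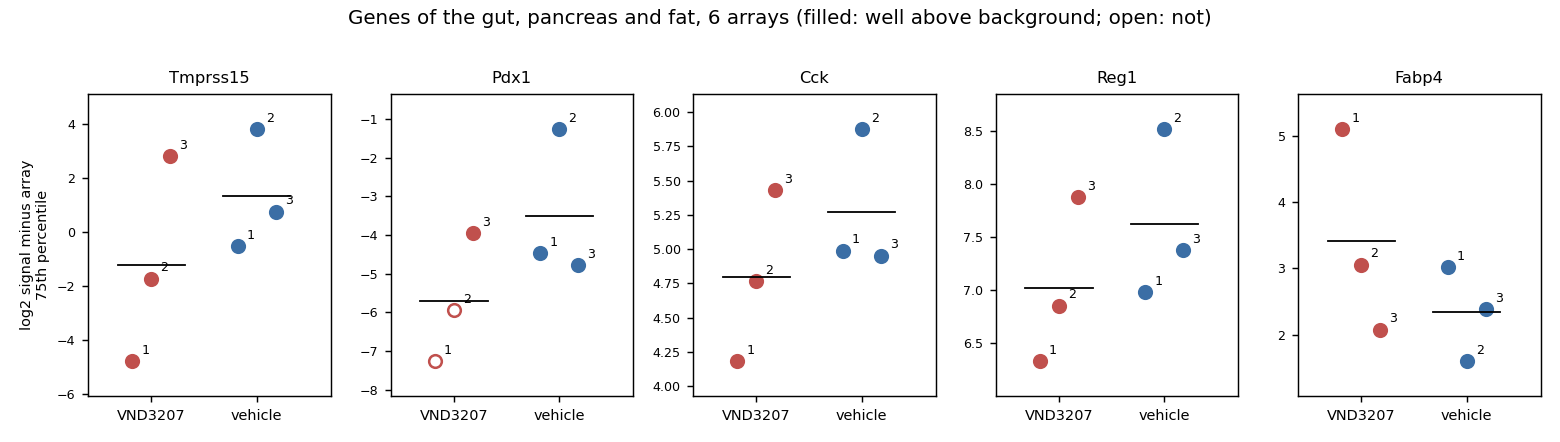
Signal of Tmprss15, Pdx1, Cck, Reg1 and Fabp4 on each of the 6 arrays, as log2 signal minus the array's 75th percentile, VND3207 left and vehicle right; lines are group means and open circles are signals not well above background. Tmprss15, Cck and Reg1 have vehicle replicate 2 highest and VND3207 replicate 3 next, and Fabp4 has its lowest point in vehicle replicate 2.

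Markers of other tissue that can be taken with the jejunum were set beside the enzymes. Most fat markers varied widely between mice but in another order. Of the 8 genes, 7 had a range of at least 2, and 0 passed limma's adjusted threshold. The exception, Cidec, was the brightest of the 8. Its brighter probe had a range of 0.69 and was highest in vehicle replicate 2. Fabp4, a fatty acid binding protein of adipocytes, had 5.11, 3.06 and 2.07 on the VND3207 arrays and 3.02, 1.60 and 2.39 on the vehicle arrays. The number of fat genes well above background was 8, 7 and 6 on the VND3207 arrays and 8, 7 and 8 on the vehicle arrays. The summed fat level was between 5.11 and 7.08 with VND3207 and between 4.81 and 5.78 with vehicle, and vehicle replicate 2 had the lowest median of the list. On the arrays with the lower sums, much of the sum is Cidec, which stayed between 4.29 and 4.98. The sum thus hides part of the variation in the other fat genes. Mesothelial genes gave 0 calls of 5, with 4, 4 and 2 of the 5 well above background on the VND3207 arrays and all 5 on each vehicle array, and with a summed level from 7.34 to 7.53 with VND3207 and from 7.41 to 7.65 with vehicle. That sum follows Krt19, a keratin that epithelium also expresses, which ranged over 0.29 on the 6 arrays. Msln, mesothelin, had 1.06, 1.29 and -2.28 on the VND3207 arrays and 0.92, 0.20 and -0.66 on the vehicle arrays, lowest in VND3207 replicate 3. Of 8 genes of stomach and Brunner glands, 4 passed the filter and 1, Atp4b, a subunit of the gastric proton pump, was lower with VND3207. Its difference was -0.86 (limma adjusted p = 0.0129), where 16.1% of all features were called lower. Atp4b was well above background on 1 VND3207 array and 3 vehicle arrays, so its difference rests in part on bounds. The summed level of that list ran from -1.79 to -1.53 with VND3207 and from -1.55 to -1.32 with vehicle, and Muc6, Tff2 and Gkn2 were not well above background on any array. Of 5 genes of the distal small intestine, 1, Insl5, an insulin-like peptide of enteroendocrine cells, was lower with VND3207. Its difference was -1.03 (limma adjusted p = 0.0398), beside the same 16.1% of all features. Insl5 was well above background on 2 VND3207 arrays and 3 vehicle arrays. The summed level of that list ran from 4.25 to 4.79 with VND3207 and from 4.01 to 4.63 with vehicle, and it follows Slc51b, the brightest gene of the list. Atp4b, Insl5, Muc6, Tff2 and Gkn2 are named after their values were seen. The part of these tissues in the enzyme signals was not tested.

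**Figure D5:**
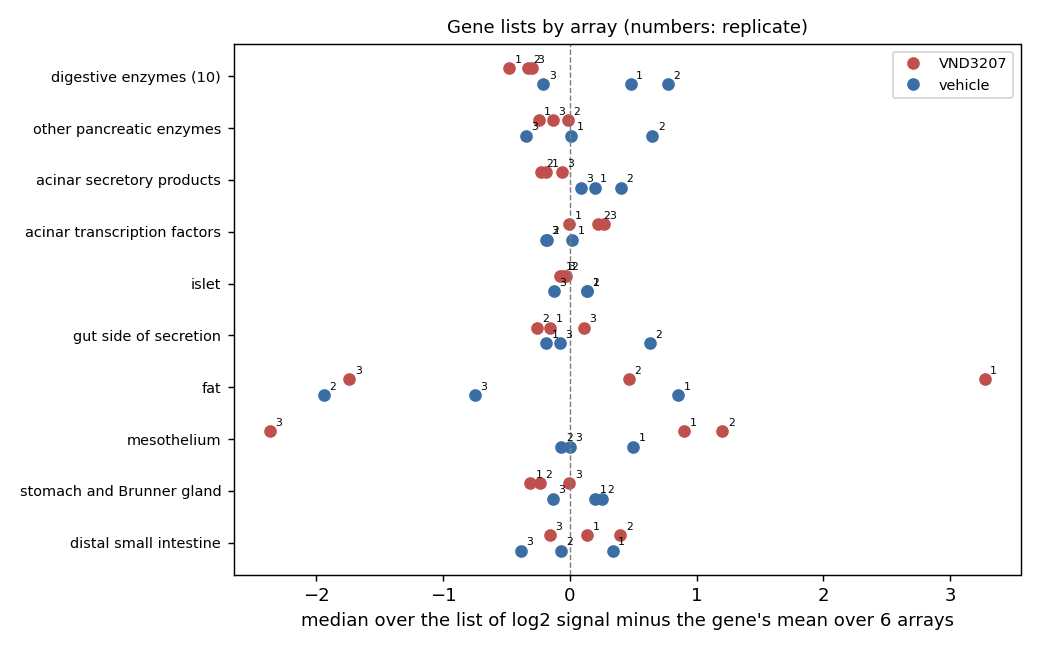
Median, over the genes of each list, of the log2 signal centred on each gene's mean of the 6 arrays, with VND3207 above vehicle within each row and replicate numbers beside the points. For the 10 digestive enzymes, the other pancreatic enzymes and the acinar secretory products, vehicle replicate 2 is the highest array, at 0.77, 0.65 and 0.40. It is also the highest for the gut side of secretion, stomach and Brunner gland, and islet lists, at 0.63, 0.25 and 0.14. For fat it is the lowest, at -1.94.

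The pattern of the 10 genes over the arrays, taken as the mean of their centred signals, was -0.60, -0.46 and -0.50 on the VND3207 arrays and 0.37, 1.37 and -0.18 on the vehicle arrays. Outside the lists, 1979 genes were well above background on at least 1 array and had a range of at least 2, and the 10 with the highest Pearson correlation to that pattern over the 6 arrays were Gm5463, 4930488B22Rik, Spata33, Zxda, Hoxc10, Olfr69, 5031410I06Rik, Wdr95, Fads6 and 1700074P13Rik. Their r was between 0.939 and 0.988 and Spearman's rho between 0.83 and 1.00. Except for Fads6, none of them was well above background on a VND3207 array. The likeness is a description over 6 arrays from which the genes were picked, and their low signals share the arrays' background.

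The promoters of Prss2, Cpa1 and Pnlip are shown because these genes had their highest signals on the same array by a wide margin. They are the 250 bases before the RefSeq start of each gene on build GRCm38.p6, written 5′ to 3′ along the gene. Capitals mark CACCTG, which reads CAGGTG on the other strand. They also mark TTTCCC, which reads GGGAAA on the other strand, as well as TATAAA.
Prss2 promoter, chr6:41521526-41521775 (+ strand): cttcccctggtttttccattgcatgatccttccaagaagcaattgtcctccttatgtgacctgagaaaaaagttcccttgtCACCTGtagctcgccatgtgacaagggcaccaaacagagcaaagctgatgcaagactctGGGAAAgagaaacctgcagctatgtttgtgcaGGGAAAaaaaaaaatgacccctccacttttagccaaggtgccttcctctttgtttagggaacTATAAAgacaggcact
Cpa1 promoter, chr6:30638968-30639217 (+ strand): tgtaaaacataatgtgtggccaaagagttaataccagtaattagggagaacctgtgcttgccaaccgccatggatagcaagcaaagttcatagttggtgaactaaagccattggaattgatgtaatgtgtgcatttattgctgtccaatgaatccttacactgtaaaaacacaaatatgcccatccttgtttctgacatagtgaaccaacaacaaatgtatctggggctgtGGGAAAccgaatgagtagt
Pnlip promoter, chr19:58670115-58670364 (+ strand): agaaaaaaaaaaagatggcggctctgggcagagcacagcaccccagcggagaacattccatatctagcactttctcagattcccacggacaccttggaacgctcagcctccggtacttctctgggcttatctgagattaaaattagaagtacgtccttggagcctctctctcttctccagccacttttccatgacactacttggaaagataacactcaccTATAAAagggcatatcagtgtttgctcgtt
CACCTG is a form of the E-box bound by the Ptf1a complex and TTTCCC is the core of the site that Rbpjl binds beside it. TATAAA is a form of the TATA box. RefSeq sequences were found for 9 of the 10 genes, the exception being Clps. On either strand, CACCTG stood in 5 of the 9 promoters, against 17.2% of 32851 mouse promoters of the same length. TTTCCC stood in 5 of 9, against 21.9% of all. TATAAA stood in 3 of 9, against 12.4%, and AAGGTCA, a form of the Nr5a2 site, in 2 of 9, against 4.08%. The general E-box CANNTG, which includes every CACCTG, stood in 8 of 9, against 66.2%. Of these motifs, Prss2 held all but AAGGTCA, Cpa1 held CANNTG and the Rbpjl core, and Pnlip held the TATA form alone. A match is a run of letters and not a measured binding site.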

How the data were processed

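Agilent Feature Extraction 10.7.1.1 made the scanner files, per the submitters' processing notes. The deposited intensity values are the processed Cy3 signal of each spot, detrended and background-subtracted within the array, per the file headers. The deposited value table holds log2 values with a median of 6.05 on all arrays; how it was scaled is not given in the sources used here, and its columns correlated with the log2 processed signal at r = 0.997 to 1.00. Control and outlier spots were left out, spots of a probe were averaged, and 0 value columns lacked a sample.

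Probes well above background on at least 3 of 6 arrays were kept, 36091 in all. Genes, 17554 by their brightest kept probe, and 13021 unnamed probes were compared with limma 3.58.1 (lmFit, eBayes, 2-sided, group only) under R 4.3.3; p-values were Benjamini-Hochberg adjusted over 30575 features, threshold 0.05. The p-values set the difference between groups against the spread between mice within a group. Each group has its own slide, so that difference includes any difference between slides, which the spread does not cover. Probes were named through RefSeq accessions (26685) or symbols, and 24808 had no name. Where a gene was well above background on no array of one group and on all arrays of the other, the fold is a lower bound. In the group without such a signal it was computed on each array from whichever was higher, the gene's own signal or the dimmest probe. That dimmest probe is the one of lowest signal, its spots averaged, that counted as well above background. Such a bound holds for the processed signal and for that dimmest probe as the limit, and not for other background corrections. The summed level of a list is the log2 of its genes' summed linear levels.

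The 10 genes, the lists and the rule for named genes (all members, all genes of the pancreatic and gut lists, the 3 brightest of other lists and the 10 most alike in pattern) were chosen with earlier results of these data known. The tissue check and its 8 genes were added later. The values of 1 further enzyme gene, which the counts include, and 1 probe sequence are not reported here. Alternatives were quantile normalisation, normexp correction (offset 50), the deposited table, looser or no filtering of dim probes, averaging the probes of a gene, a trended and robust variance, removal of smooth trends with the spot's place, brightness and GC content (mgcv 1.9.3), the replicate number as a block and each array left out. Equal replicate numbers did not pair mice: the correlation of their deviations was 0.12, -0.11 and -0.04.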

Additional observations from a re-analysis of the deposited data

How the results depend on the processing

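The median difference of the 10 enzyme genes, -0.74, was -0.16 after removal of smooth trends with the spot's place, brightness and GC content (the trend correction) and lay between -0.99 and -0.31 when 1 array was left out, the value nearest 0 without vehicle replicate 2. Of 150 values of single enzyme genes under the alternatives, 12 lay above 0 (Pnliprp1 5, Clps 3, Ctrl 2, Cela1 1, Pnlip 1). Of the 150, 144 moved by less than the spread between replicates or not at all. Vehicle replicate 2 itself widens that spread (without it Pnlip was -0.05 and Prss2 -0.90). The other 6 were 3 under normexp correction (Cpa1 -0.59, Cela3b -0.59, Prss2 -0.38) and 3 under the trend correction (Cela3b -1.29, Cela1 0.05, Pnlip 0.48). Many of the 150 could not move. Looser or no filtering, the trended and robust variance and the replicate block leave these differences unchanged by construction. Averaging the probes of a gene could change Clps only. The counts therefore overstate how stable the values are. Outside the 10, the 2 genes called in the pancreatic lists were Erp27 and Spink1. They became 1 after quantile normalisation, in the deposited table, with no filter, under the trend correction and with the replicate number as a block. The count was 4 with normexp or a trended variance, which added Sycn and Zg16. Leaving out 1 array gave 1 to 2. Features called numbered 5216 with 5.54% higher, 2962 with normexp, 2947 under the trend correction with 31.5% higher, 3473 with the replicate block and 3035 to 5040 with 1 array left out, the lowest without vehicle replicate 2. They numbered 3838 after quantile normalisation and 3750 in the deposited table, with 19.5% higher in each, and quantile normalisation moved the median of all features to 0.03 from -0.08. The causes were not tested. Slide was not run as a block because each slide holds 1 group. Dim signals limit Prss2, Pnlip, Cpa1 and Cela3b, whose VND3207 values are bounds.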
